A study of Mus musculus with 4 samples.

Results

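The genes described here encode the mitochondrial carrier family, named Slc25a and a number in the mouse, together with the uncoupling proteins Ucp1 and Ucp3. Members were taken from the array's annotation as every probe set that names a single gene with such a symbol. The rule itself uses no measured value, although the family was picked for description with earlier results of these data known. This gave 96 of the 45037 probe sets that are not controls, naming 46 genes. A probe set is the group of short probes that together read 1 transcript. The samples were ventricles from hearts of embryonic day 17.5 mice of a C57BL/6 by SV129 cross, hybridised to 4 Affymetrix MOE430v2 arrays. The wild-type group (WT) had 2 arrays, each from pooled tissue of 2 animals, and the group of littermates deficient in HDAC2 (KO) had 2 arrays, each from pooled tissue of 3. HDAC2 is a histone deacetylase, an enzyme that removes acetyl groups from histones. How the Hdac2 allele was made, and the sex of the embryos, are not given in the sources used here. Groups were taken from the sample titles, because the source entry of the KO samples contradicts itself by also reading wt. At probe set 1445684_s_at, Hdac2 had signals of 1188.5 and 1421 on the WT arrays and 31.4 and 21.0 on the KO arrays, which separates the groups as the titles do.

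Mitochondrial carriers sit in the inner membrane of the mitochondrion and move nucleotides, phosphate, organic acids, amino acids, cofactors and iron between the cytosol and the matrix. The adenine nucleotide translocases send newly made ATP out in exchange for ADP, and the phosphate carrier brings in the phosphate from which ATP is made. Heart muscle depends on both, since most of its ATP comes from oxidative phosphorylation. Uncoupling proteins are relatives that can let protons back across the membrane without ATP being made.

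The adenine nucleotide translocase genes are described most fully. They hold 4 of the 6 carrier probe sets with negative differences and an unadjusted p under 0.05. None of the 3 with positive differences at this p is theirs. The choice thus rests on these same data. Slc25a5 and Slc25a4 also have 8 and 4 of the 56 tested carrier probe sets, so they had more chances to be counted. Of all tested probe sets, 8.23% were lower at this p. The 250 bases before the start of each of the 3 translocase genes are shown because they place the paralogues in the genome. They were not compared with each other base by base. They come from RefSeq on assembly GRCm38.p6, each read 5′ to 3′ on the gene's own strand, and capitals mark matches on either strand to the CCAAT box (CCAAT), the GC box (GGGCGG) or the E-box (CACGTG). Slc25a4 lies on the minus strand with its window at chr8:46211063-46211312, Slc25a5 on the plus strand with its window at chrX:36795347-36795596, and Slc25a31 on the plus strand with its window at chr3:40708621-40708870.
Slc25a4: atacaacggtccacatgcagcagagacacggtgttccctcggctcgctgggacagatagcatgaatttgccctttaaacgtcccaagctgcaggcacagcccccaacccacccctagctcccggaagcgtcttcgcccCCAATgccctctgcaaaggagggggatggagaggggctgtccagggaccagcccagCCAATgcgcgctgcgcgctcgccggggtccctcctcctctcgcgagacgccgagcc
Slc25a5: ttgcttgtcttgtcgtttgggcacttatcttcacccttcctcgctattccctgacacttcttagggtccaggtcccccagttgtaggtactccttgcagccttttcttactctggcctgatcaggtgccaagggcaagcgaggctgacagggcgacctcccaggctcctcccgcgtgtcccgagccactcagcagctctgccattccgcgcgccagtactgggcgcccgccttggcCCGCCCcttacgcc
Slc25a31: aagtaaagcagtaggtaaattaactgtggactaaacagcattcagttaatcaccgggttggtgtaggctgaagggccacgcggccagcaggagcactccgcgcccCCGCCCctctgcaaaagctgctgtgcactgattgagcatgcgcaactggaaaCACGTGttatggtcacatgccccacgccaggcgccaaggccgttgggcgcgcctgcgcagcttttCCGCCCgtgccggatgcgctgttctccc

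The Slc25a4 window holds 2 CCAAT boxes, the Slc25a5 window 1 GC box, and the Slc25a31 window 2 GC boxes and 1 E-box. None of the windows holds the TATA box core (TATAA) or the palindromic site of nuclear respiratory factor 1, which were also searched on both strands. The windows hold 18, 14 and 18 CG pairs for Slc25a4, Slc25a5 and Slc25a31, against a median of 6 over all 32851 RefSeq promoter windows of this length. Over the carrier windows the median was 12. Promoter windows were listed for 36 of the 46 carrier genes, 45 windows in all. The GC box was found in 71.1% of these 45 windows and in 32.7% of all windows, the CCAAT box in 44.4% and 33.8%, the E-box in 17.8% and 6.02%, and the TATA box core in 4.44% and 22.8%. These shares describe letters in a window and say nothing of binding.

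A probe set was tested where WT, KO or both had a Present detection call on each of their arrays, and 56 of the 96 carrier probe sets passed this filter, naming 33 of the 46 genes. Of these 56, 51 were Present on all 4 arrays. Of the 40 probe sets that were not tested, 34 had no Present call on any array. Values are MAS5 signals, a linear brightness scaled alike on every array. Differences are mean log2 signals of KO less those of WT, ± the moderated standard error (SE) of limma, with n = 2 arrays per group, and adjusted p-values are limma's with Benjamini-Hochberg adjustment over all 19065 probe sets tested. The KO embryos are described as littermates, but nothing says which pools shared litters or animals. The arrays were fitted unpaired, and p-values measure only the spread between these pools.

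Markers of some other tissues differed between the groups. The labelled tissue was borne out by its own markers, with all 12 heart muscle markers Present on every array and a summed signal of 117621 to 125072. Of the 20 tested probe sets of these markers, 2 were lower in KO in limma. These were 1417729_at of Myh6 (-1.45, adjusted p = 0.00977) and 1440424_at of Tnnt2 (-0.48, adjusted p = 0.0452). The brightest probe set of each gene differed little and did not pass, at -0.079 for Myh6 1448826_at and 0.0073 for Tnnt2 1418726_a_at. The groups did not overlap at 7 of the 20, or 35%, with KO below WT at each. Over all tested probe sets, KO lay below WT without overlap at 22.5% and above at 25%. The 20 skeletal muscle markers summed to 15724 and 14919 for WT and 3664.5 and 3385 for KO. Of them, 14 were Present on both WT arrays and 5 on both KO arrays, and 14, among them Tnnc2, Tnnt3, Mylpf and Neb, had no Present call in KO. The 8 bone and cartilage markers summed to 549 and 459 for WT and 219 and 242 for KO. Slc25a4, Slc25a12 and Ucp3 are also carriers of skeletal muscle, and the part of skeletal muscle in these values was not tested. The 8 fat markers on the array summed to 6014 to 6142.5 in WT and 6258 to 7036 in KO, with Adipoq, Cebpa and Lep never Present, and Ucp1 likewise Absent on every array. The 10 macrophage markers summed to 1550.1 and 1676 for WT and 1388 and 1360.4 for KO, and the 8 endothelial markers to 3467 to 3493 and 3476 to 3751. The ventricle samples are bulk tissue, in which fewer cells of a type and less RNA per cell cannot be told apart.

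Carrier transcripts differed little between KO and WT ventricles. At an adjusted p under 0.05, 0 carrier probe sets were higher and 1 was lower, a probe set of Slc25a5. That is 1.79% of the 56 tested, where 1.34% of all tested probe sets passed, 0.383% higher and 0.96% lower. At an unadjusted p under 0.05 there were 9 carrier probe sets, 3 higher and 6 lower, or 16.1%, against 15.5% of all tested probe sets, 7.29% higher and 8.23% lower. The arrays of the groups did not overlap at 25 of the 56, with KO above WT at 12 and below at 13, or 44.6%, against 47.5% of all tested probe sets, 25% above and 22.5% below. The carriers' shares thus lay near the background in all 3 counts.

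The size of the differences was small as well. With each gene read at its brightest tested probe set, 17 carrier genes lay lower and 16 higher in KO, and the median difference was -0.011, beside a median of 0.035 over all 10184 genes tested in the same way. The median absolute difference was 0.14 over the 56 carrier probe sets and 0.19 over all tested probe sets. Arrays of the same group differed by a median of 0.11 between the WT arrays and 0.14 between the KO arrays at the carrier probe sets. Over all tested probe sets these medians were higher as well, 0.16 between the WT arrays and 0.19 between the KO arrays. The values within a group are differences between single arrays and are not on the same footing as a difference between means of 2 arrays. Slc25a31 alone passed 1.5-fold among the 56.

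**Figure D1:**
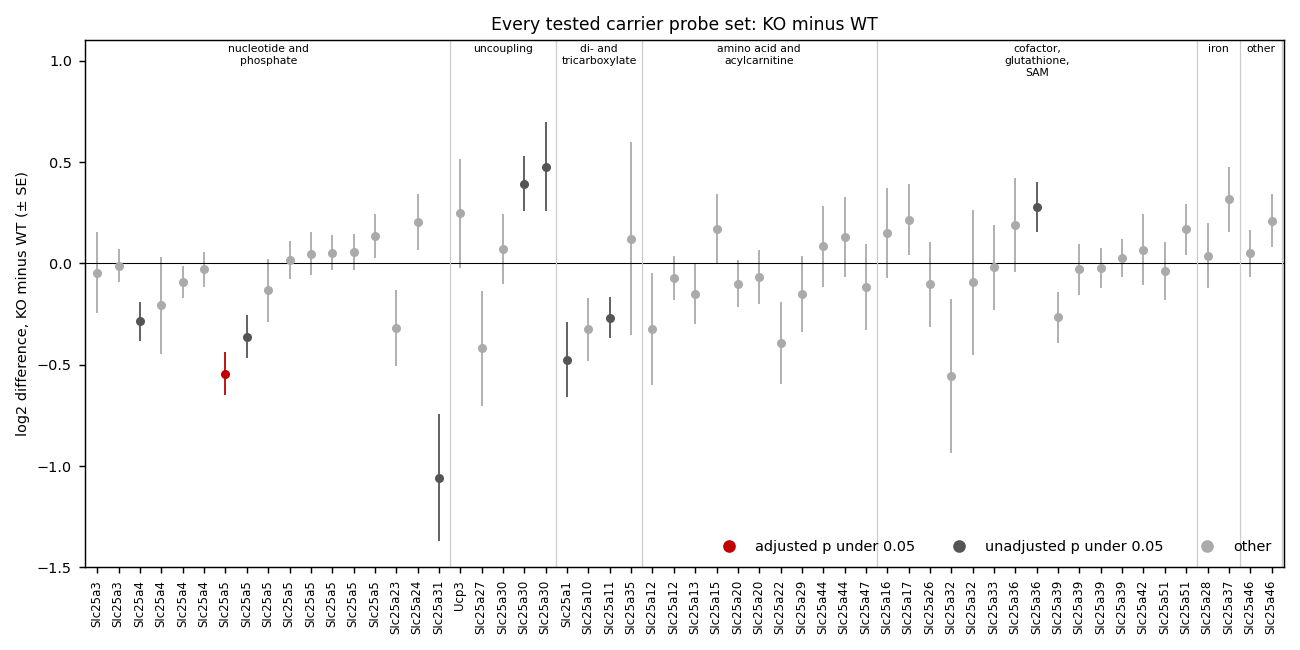
Log2 difference, KO minus WT, with its SE for each of the 56 tested carrier probe sets, grouped by what the carriers move; the red point passed an adjusted p of 0.05 in limma and dark points an unadjusted p of 0.05. Points lie on both sides of 0, from -1.06 at Slc25a31 to 0.48 at Slc25a30, and a single Slc25a5 probe set is red.

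**Figure D2:**
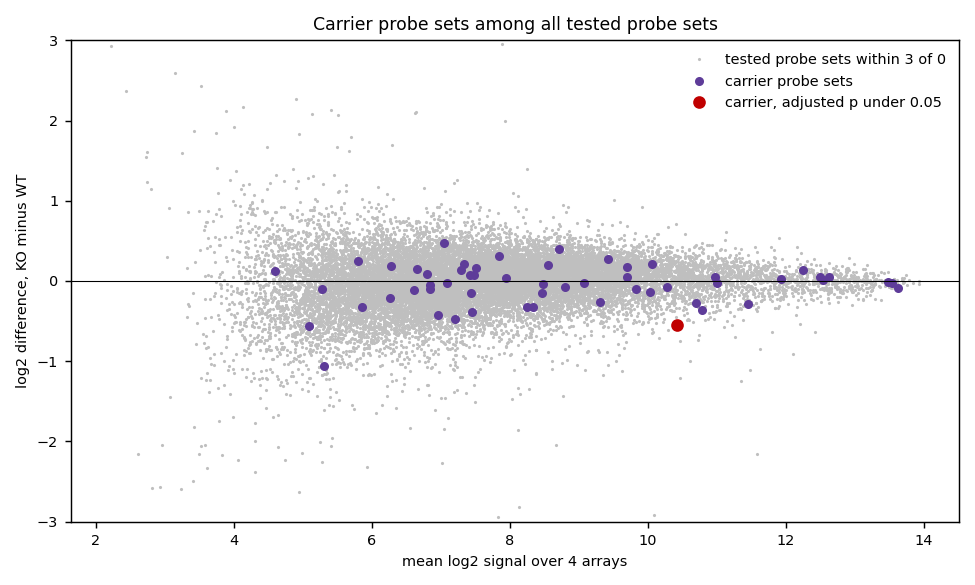
Log2 difference, KO minus WT, against the mean log2 signal over the 4 arrays, with grey points for tested probe sets and purple points for the 56 carrier probe sets; 26 tested probe sets with differences over 3 in size are not drawn. The carriers lie within the grey cloud along the whole range of signal, and the red Slc25a5 point sits at its lower edge.

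Slc25a5 encodes the translocase of growing and many non-muscle cells, and its probe sets did not read alike. Probe set 1438922_x_at had signals of 1651 and 1674 on the WT arrays and 1101 and 1181.5 on the KO arrays. Both KO arrays lay below both WT arrays, and the difference of -0.54 ± 0.11 passed the test (adjusted p = 0.0208 in limma, 1.46-fold lower in KO). Leaving out WT replicate 1 raised the adjusted p to 0.124 and leaving out WT replicate 2 raised it to 0.111, while it held without either KO array. The call was also lost with no filter on detection and with no variance trend, where the difference stayed at -0.54. It was lost too with the authors' signal log ratio, where the difference was -0.25 and no probe set on the whole array passed. The adjusted p ran from 0.00257 to 0.440 over 15 alternatives. Probe set 1438360_x_at read 2081 and 1931 for WT and 1474.5 and 1652 for KO, again without overlap, and did not pass (-0.36 ± 0.11, adjusted p = 0.126).

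The other 6 tested Slc25a5 probe sets had overlapping groups. At 1436874_x_at, the brightest, the signals were 6161 and 6190.0 for WT and 6033 and 6830.5 for KO (0.056 ± 0.091, adjusted p = 0.811). Probe sets 1434801_x_at and 1423772_x_at read 5601 and 6445, and 5661 and 6116, on the KO arrays, around WT values of 5929 to 5959 and of 5668 to 5677. At 1430542_a_at, WT read 4669 and 4591 and KO read 4522 and 5709.5 (0.13 ± 0.11, adjusted p = 0.582). At these 4 probe sets the WT arrays lay close together, with KO array 1 below both and KO array 2 above both. Probe set 1438546_x_at read 2133 and 1837 for WT and 1989.6 and 2105 for KO (0.048 ± 0.11, adjusted p = 0.871). Probe set 1438545_at read 1234 and 981 for WT and 849 and 1183.5 for KO (-0.13 ± 0.16, adjusted p = 0.721). At both, WT array 1 was the highest of the 4. Over the 8 probe sets of this gene the difference thus ran from -0.54 to 0.13, the widest span among the 12 carrier genes with more than 1 tested probe set.

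Probe sets whose names end in x_at share probes with other sequences, so the Slc25a5 values are uncertain as measures of this transcript alone. The gene lies on the X chromosome, and the groups differed in transcripts of the sex chromosomes. Xist read 80.5 and 90.1 for WT and 548 and 794 for KO at 1436936_s_at. At 1427262_at it was Absent in WT, at 1.3 and 6.1, and Present in KO, at 414 and 797. The Y-linked Eif2s3y read 431 and 449 for WT and 240 and 126 for KO at 1417210_at. Uty, also Y-linked, read 132 and 146 for WT and 66.0 and 48.9 for KO at 1426598_at. The 3′ over 5′ signal ratio of the actin control, which reflects how intact the RNA was, stood at 1.85 and 2.32 for WT and 2.75 and 2.42 for KO. Both differences go with genotype on these 4 arrays, so they lie beside every difference between KO and WT given here. The part of either in the values of Slc25a5, or of any other gene, was not tested.

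Slc25a4, the translocase of heart and skeletal muscle, did not pass at any of its 4 tested probe sets. The brightest, 1455069_x_at, read 13104 and 13117 for WT and 11959 and 12672 for KO, with no overlap and a difference of -0.091 ± 0.080 (adjusted p = 0.617). At 1424562_a_at the signals were 12494 and 11628 for WT and 11157 and 12489 for KO, which overlap (-0.030 ± 0.087, adjusted p = 0.904). These signals come close to the highest on any array, 15978. Probe set 1434897_a_at read 3179 and 3009.6 for WT and 2536 and 2537 for KO, a difference of -0.29 ± 0.094 without overlap that did not pass (adjusted p = 0.173). The dim 1424563_at, at 94.0 and 73.0 for WT and 70.4 and 73.1 for KO, was called Absent on WT array 2.

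Slc25a31, the translocase known from the testis, had the largest difference among the tested carrier probe sets without an offset. Its probe set 1453133_at was dim but Present on all 4 arrays, with signals of 55.6 and 58.3 for WT and 25.4 and 29.5 for KO. Both KO arrays lay below both WT arrays, 2.08-fold on average. This difference, -1.06 ± 0.31, missed the threshold (adjusted p = 0.127, from 0.0827 to 0.440 over 15 alternatives). Its size depended on how low signals were treated, at -0.75 with an offset of 16 added to every signal and -0.40 with an offset of 64.

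**Figure D3:**
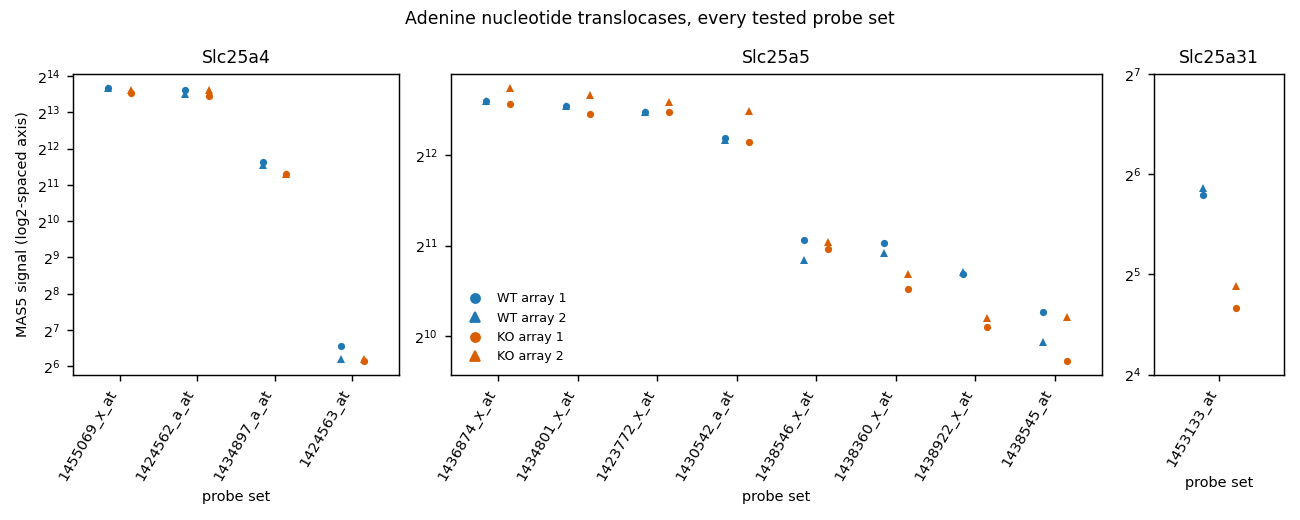
MAS5 signal on each array, on a log2-spaced axis with its own range in each panel, for every tested probe set of Slc25a4, Slc25a5 and Slc25a31, with blue for WT, orange for KO, circles for array 1 and triangles for array 2. Both orange points lie below both blue points at Slc25a4 1455069_x_at and 1434897_a_at, at Slc25a5 1438922_x_at and 1438360_x_at and at Slc25a31, while they fall on both sides of blue at the 4 brightest Slc25a5 probe sets.

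The phosphate carrier Slc25a3, which supplies ATP synthase with phosphate, read 11457 and 11586 for WT and 11023.5 and 11860 for KO at 1416300_a_at. The groups overlapped, and the difference was -0.011 ± 0.081 (adjusted p = 0.963). Its second probe set, 1440302_at, lay between 112 and 118 on all 4 arrays. Slc25a23 and Slc25a24 encode calcium-regulated carriers that exchange ATP-magnesium for phosphate. Slc25a23 read 337 and 344 for WT and 338 and 219.7 for KO, so a single KO array was low. Slc25a24 read 335 and 368 for WT and 414.5 and 395.5 for KO, with KO above WT. Neither passed the test. Their relatives Slc25a25 and Slc25a41 had no Present call on any array, with signals of at most 111 and 3.5. Of the 17 tested probe sets in this group of nucleotide and phosphate carriers, 1 was lower and 0 were higher at an adjusted p under 0.05. The 1 is the Slc25a5 probe set already counted above. Of all tested probe sets, 0.96% were lower and 0.383% higher in the same test.

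**Figure D4:**
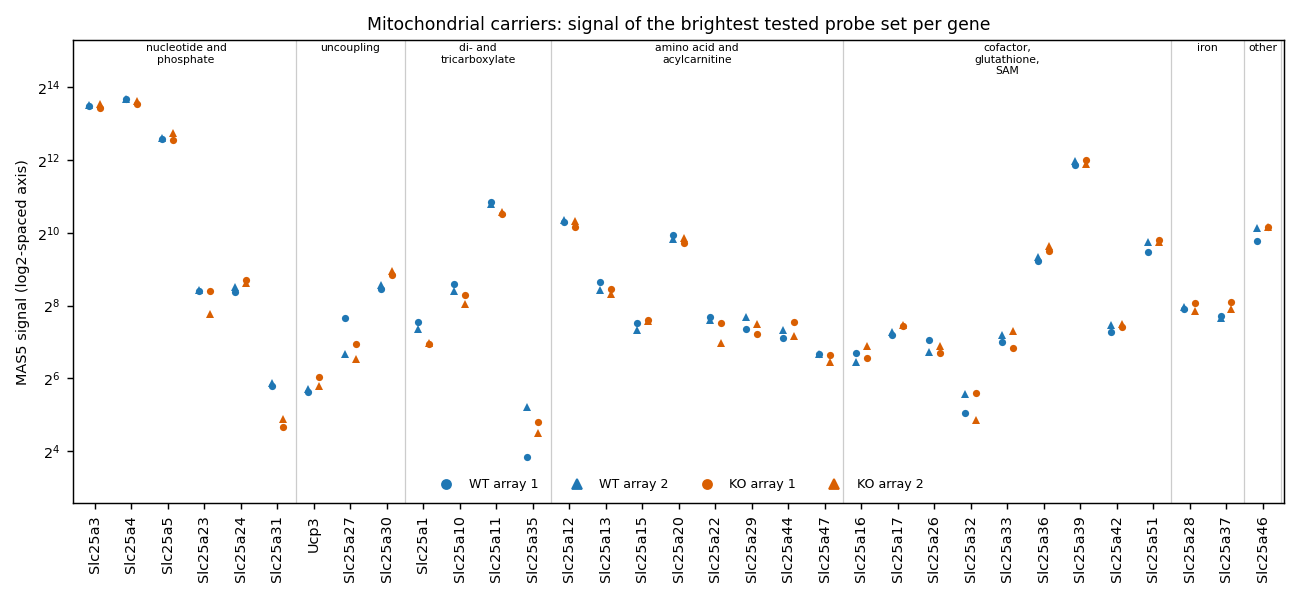
MAS5 signal on each of the 4 arrays, on a log2-spaced axis, for the brightest tested probe set of each of the 33 tested carrier genes, grouped by what they move, with blue for WT, orange for KO, circles for array 1 and triangles for array 2. Both KO points lie below both WT points at 7 genes, among them Slc25a31 and Slc25a1, and above them at 9, among them Slc25a30 and Slc25a36, while the groups overlap at 17. Over all tested probe sets, 22.5% had KO below WT without overlap and 25% had it above.

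Among the uncoupling proteins and their near relatives, none of the 5 tested probe sets passed in limma, and 2 had an unadjusted p under 0.05. Both were of Slc25a30, and 15.5% of all tested probe sets had such a p. Slc25a30, a carrier of the kidney and other tissues related to the uncoupling proteins, had the smallest p here. Its probe set 1420836_at read 349.6 and 380.0 for WT and 462 and 495 for KO, with no overlap (0.39 ± 0.14, adjusted p = 0.192). Probe set 1450018_s_at of the same gene read 114 and 110.2 for WT and 128 and 191 for KO (0.48 ± 0.22, adjusted p = 0.314), a difference that rested mainly on KO array 2. The third probe set, 1420835_at, overlapped, at 182 and 168 for WT and 191.5 and 176 for KO (0.072 ± 0.17). All 3 had positive differences, and the gene's other 2 probe sets were Absent throughout.

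Ucp3, an uncoupling protein of skeletal muscle and heart, read 49.7 and 52.1 for WT and 66.0 and 55.2 for KO at 1420657_at. Both KO arrays lay above both WT arrays, and the test was not passed. Slc25a27, which is known mainly from the brain, read 203 and 101 for WT and 123.5 and 93.1 for KO, so that the WT arrays differed from each other by more than the groups did (-0.42 ± 0.28). Ucp1, which makes heat in brown fat, read between 4.6 and 8.2 on the 4 arrays and was called Absent on each. Slc25a14, another relative and X-linked like Slc25a5, was also Absent on every array, at 18.6 and 5.4 for WT and 49.9 and 56.1 for KO.

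The carriers of di- and tricarboxylic acids had negative differences at 3 of their 4 tested genes. None passed in limma, with 2 at an unadjusted p under 0.05, which 15.5% of all tested probe sets reached. Slc25a1 exports citrate, the source of cytosolic acetyl-CoA. It read 186 and 163 for WT and 124 and 127 for KO, with no overlap (-0.48 ± 0.18, adjusted p = 0.242). Slc25a11 exchanges 2-oxoglutarate for malate and is a part of the malate-aspartate shuttle, which carries reducing power into the mitochondrion. It read 1854 and 1778 for WT and 1481 and 1534 for KO, again with no overlap (-0.27 ± 0.10, adjusted p = 0.234). Slc25a10, the dicarboxylate carrier, read 389 and 335.5 for WT and 313 and 265 for KO at 1416954_at, without overlap (-0.33 ± 0.15, adjusted p = 0.335). Without KO replicate 2 this difference was -0.21. Its other probe set, 1416955_at, read 138 and 108 for WT and 56.6 and 40.5 for KO but was Present on WT array 1 alone and was not tested. The orphan carrier Slc25a35 was dim, at 14.4 and 37.0 for WT and 27.8 and 22.7 for KO, and its relative Slc25a34, with 1 Present call, was not tested.

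The amino acid and acylcarnitine carriers showed no probe set past an unadjusted p of 0.05 among the 11 tested. Slc25a12, the aspartate-glutamate carrier of heart, muscle and brain and the other carrier of the malate-aspartate shuttle, read 1252.5 and 1304 for WT and 1155 and 1277 for KO at 1428440_at, with overlapping groups (-0.073 ± 0.11, adjusted p = 0.792). Slc25a13, its counterpart known from the liver, read 398 and 347 for WT and 353 and 317 for KO. Slc25a20, which brings acylcarnitines into the matrix for fatty acid oxidation, read 980.4 and 909.8 for WT and 840.2 and 924 for KO at 1423108_at (-0.10 ± 0.12, adjusted p = 0.719). The glutamate carrier Slc25a22 read 206 and 193 for WT and 184 and 126 for KO, with KO below WT mainly through KO array 2.

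In the same group, the ornithine carrier Slc25a15 read 183 and 160.2 for WT and 194 and 190.3 for KO. Slc25a44, a carrier of branched-chain amino acids, read 138.5 and 162 for WT and 188 and 143 for KO at its brighter tested probe set, 1433448_at, where the groups overlapped, and 108 on both WT arrays and 114 and 115 on the KO arrays at 1436909_at, where they did not. The basic amino acid carrier Slc25a29 and the carrier Slc25a47, known from the liver, had tested probe sets with signals of 151 to 204 and of 88.3 to 102. Slc25a2, Slc25a18, Slc25a38, Slc25a45 and Slc25a48 had no tested probe set. Of these, Slc25a38, which carries glycine for heme synthesis, had signals of 126 to 200.1 with Absent calls on all 4 arrays.

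Among the carriers of cofactors, nucleotides, glutathione and S-adenosylmethionine, Slc25a36 had the smallest p. This carrier of pyrimidine nucleotides read 603 and 648 for WT and 723 and 792 for KO at 1419657_a_at, with no overlap, and did not pass (0.28 ± 0.12, adjusted p = 0.302). Its dimmer probe set 1438520_at read 69.3 and 76.8 for WT and 79.1 and 87.5 for KO (0.19 ± 0.23), so KO lay above WT at both. Slc25a33, the other pyrimidine nucleotide carrier, overlapped, at 129 and 145.5 for WT and 115 and 159 for KO.

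Slc25a39, a glutathione carrier, read 3732 and 4043.5 for WT and 4112 and 3800.4 for KO at its brightest probe set, 1439410_x_at (0.025 ± 0.094, adjusted p = 0.927). Its probe set 1447783_x_at read 727 and 671 for WT and 603 and 558 for KO without overlap, while 1453111_a_at and 1456176_x_at overlapped. Slc25a51, the carrier of NAD, read 715 and 862 for WT and 901.5 and 864 for KO at 1433816_at (0.17 ± 0.13, adjusted p = 0.545), and the lower WT array set most of that difference. The peroxisomal carrier Slc25a17 read 146 and 154 for WT and 172.5 and 176 for KO. Slc25a16, Slc25a26, the carrier of S-adenosylmethionine, Slc25a32, the carrier of folate, and Slc25a42, the carrier of coenzyme A, had overlapping groups at each tested probe set. Slc25a32 had no Present call in KO at 1435483_x_at, where WT read 56.8 and 30.1 and KO read 30.7 and 25.7. Slc25a40, the close relative of Slc25a39, was not tested.

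The iron carriers feed heme and iron-sulfur cluster synthesis. Slc25a37, mitoferrin-1, which red cell precursors use most, read 209 and 203 for WT and 272 and 241 for KO. Both KO arrays lay above both WT arrays, by 0.32 ± 0.16, which did not pass (adjusted p = 0.368). Slc25a28, mitoferrin-2, the form of other tissues, overlapped, at 241 and 248 for WT and 271.5 and 232 for KO (0.037 ± 0.16, adjusted p = 0.938). Among 12 erythroid markers listed, 9 were on the array, and their summed signal was 648 and 584 for WT and 762 and 764 for KO. Alas2, the heme synthesis enzyme of red cell precursors, read 441 and 342 for WT and 468 and 495 for KO, and Epb42, Ermap, Hbb-bh1, Klf1 and Rhag had no Present call on any array. Hbb-y, an embryonic globin, read 22.6 and 11.8 for WT and 58.8 and 57.3 for KO at 1436717_x_at. Of the 3 erythroid genes tested, 2 had a positive difference at their brightest probe set and 1 a negative one, -0.012. Over their 5 tested probe sets the differences ran from -0.28 to 2.27. The part of erythroid cells in the Slc25a37 values was not tested.

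The remaining carriers were Slc25a46, Slc25a53 and Slc25a54. Slc25a46, an outer membrane protein of mitochondrial division and shape, read 871 and 1124 for WT and 1155 and 1135 for KO at 1418134_at (0.21 ± 0.13, adjusted p = 0.455). KO lay above WT by a small margin over WT array 2, and its second probe set overlapped at 803 to 887. Slc25a53 and Slc25a54 were not tested. In all, 13 carrier genes had no tested probe set, with signals of at most 200.1, and fewer transcripts in these tissues cannot be told from probe sets that read poorly.

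Genes that work with the carriers were followed in 6 lists. In the machinery that imports carriers into the inner membrane, 14 genes were tested at 31 probe sets. In limma, 1 was lower and 0 were higher, beside 0.96% lower and 0.383% higher of all tested probe sets. The lower was Tomm40, the channel of the outer membrane, with signals of 1037 and 977.5 for WT and 619 and 644 for KO (-0.67 ± 0.12, adjusted p = 0.0104), a call that did not hold when WT replicate 1 was left out (adjusted p = 0.101). The list's median over genes was 0.073, with 8 of 14 genes above 0. An unadjusted p under 0.05 was reached by 12.9% of its probe sets, against 15.5% of all tested probe sets. Among 18 tested genes of other mitochondrial transporters and channels, Vdac1, the main anion channel of the outer membrane, was lower at 1415998_at, with signals of 2874.5 and 2535 for WT and 2018 and 1803 for KO (-0.50 ± 0.11, adjusted p = 0.0369). Its brightest probe set, 1437192_x_at, did not pass (-0.10 ± 0.097, adjusted p = 0.647). Of this list's 27 tested probe sets, 1 was lower and 0 were higher in limma, and 14.8% had an unadjusted p under 0.05. Leaving out WT replicate 1 raised the adjusted p at 1415998_at to 0.312, and leaving out KO replicate 2 raised it to 0.0981. Over 15 alternatives the adjusted p ran from 0.00044 to 0.356 for Tomm40 and from 0.00348 to 0.368 for this Vdac1 probe set. Both calls were lost with no filter on detection, no variance trend or the signal log ratio. With the last, no probe set on the whole array passed.

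Heme and iron-sulfur synthesis had 1 called gene of 12 tested, at 1 of 18 probe sets, where 1.34% of all tested probe sets were called. Alad, an early enzyme of heme synthesis, rose in KO, with 228 and 211 in WT against 392 and 429.5 (0.90 ± 0.15, adjusted p = 0.00795), and the call held without each array in turn. It was lost with no filter on detection, no variance trend or the signal log ratio, and the adjusted p ran from 0.000151 to 0.357 over 15 alternatives. With the signal log ratio no probe set on the whole array passed, so the loss there is not particular to Alad. The list's median was 0.048, and 16.7% of its probe sets had an unadjusted p under 0.05, against 15.5% of all tested probe sets. The erythroid marker sum, 584 to 648 in WT and 762 to 764 in KO, was also higher in KO, and its part in the Alad value was not tested.

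In the other lists no gene passed in limma. An unadjusted p under 0.05 was reached by 20% of ATP synthase, 20% of partner enzyme and 8.7% of regulator probe sets. Of all tested probe sets, 15.5% reached it. Among 17 ATP synthase genes, 14 had a negative difference at their brightest probe set, where 44.3% of all tested genes had one, with a median of -0.083, and 6 of 30 probe sets had an unadjusted p under 0.05. The smallest p-values belonged to Atp5d (-0.33 ± 0.11, adjusted p = 0.152, and -0.19 without WT replicate 1) and Atp5g1 (-0.28 ± 0.088, adjusted p = 0.158). Among 16 partner enzymes of the carriers, with 7 of 35 probe sets at an unadjusted p under 0.05, Cpt2, which receives the acylcarnitines that Slc25a20 brings in, read 401 and 371 for WT and 563 and 585 for KO (0.57 ± 0.13, adjusted p = 0.0507). Its difference was 0.10 with the signal log ratio (adjusted p = 0.65), and the adjusted p ran from 0.0115 to 0.65 over 15 alternatives. Got2, the matrix aminotransferase of the malate-aspartate shuttle, had one of -0.47 ± 0.12 at 1417716_at (adjusted p = 0.0672) and read 1302 and 1151 for WT and 901 and 864 for KO there. Among 12 regulators of mitochondrial genes, with 2 of 23 probe sets at an unadjusted p under 0.05, Ppara (-0.45 ± 0.16, adjusted p = 0.192) and Esrra (-0.38 ± 0.17, adjusted p = 0.309) had the smallest p. Esrra depended on which KO array was kept, with -0.63 and an adjusted p of 0.0453 when KO replicate 1 was left out, and -0.12 and 0.797 when it was KO replicate 2.

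**Figure D5:**
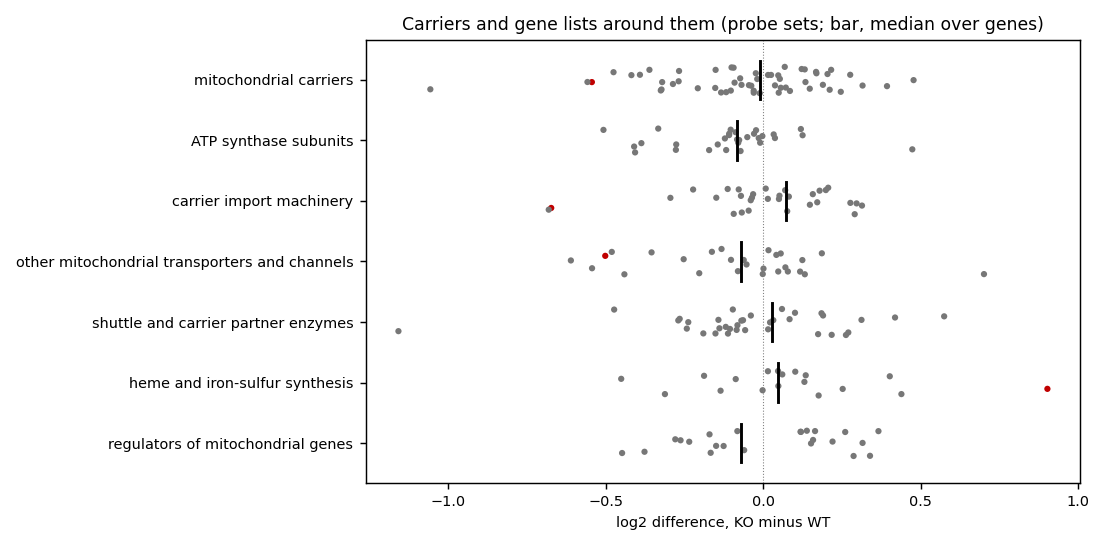
Log2 difference, KO minus WT, for each tested probe set of the carriers and of 6 lists of genes that work with them, with red for an adjusted p under 0.05 in limma and a black bar for the median over genes at their brightest probe set. The medians lie between -0.083 and 0.073, and the red points are Slc25a5, Tomm40, Vdac1 and Alad.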

How the data were processed

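Per the submitters' processing notes, the authors made the values with MAS5, and its version and annotation are not given in the sources used here. Per the file headers, each deposited array table gives for every probe set a signal, which is an intensity on a linear scale, a detection p-value, a call of Present, Marginal or Absent made from it, and a signal log ratio, on a log2 scale, against a baseline array that is not named. The deposited signals had a 2%-trimmed mean of 150 on all 4 arrays, and the deposited table for the whole series held equal signals. Symbols are those of the platform annotation, updated by gene identifier with a RefSeq table of GRCm38.p6 that held all 46 carrier genes.

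The 64 controls were left out. Signals of 0, 4 in all, were set to 0.1, and log2 signals were fitted with limma 3.58.1 in R 4.3.3 (lmFit, eBayes with a variance trend), with genotype as the sole factor. The number of arrays, 2 per group, limits the precision. The fit was tested on simulated data. The members and gene lists were chosen with earlier results of these data known. Values on every array are given for probe sets at an unadjusted p under 0.05, the other tested probe sets of those genes and the 2 brightest genes of each group of carriers, and in part for others. In the 6 lists, called genes are named, or else the 2 with the smallest p. Arrays with the same number did not vary together (correlation of -0.011 between the differences within groups). The alternatives were 2 other scalings, offsets of 16 and 64, 2 other filters, 2 other variance priors, a replicate block, the signal log ratio, the series table, other ways to read a gene with several probe sets, and leaving out each array.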

Additional observations from a re-analysis of the deposited data

How the results depend on the processing

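With 2 arrays per group, a call rests on the variance prior shared across probe sets, and where an array is left out the lone array is assumed to vary like the other group. The 1 lower carrier probe set became 0 with no filter on detection, with no variance trend and with the signal log ratio, and was 0 or 1 with an array left out; the count of higher carrier probe sets stayed at 0 under every alternative run. Slc25a5 1438922_x_at had adjusted p-values of 0.188, 0.265 and 0.440 under those 3 alternatives. With a replicate block the counts were 0 higher and 1 lower and the carriers' median was -0.011. The arrays of a block share a number, and whether they share a litter is not given. Over all probe sets the block gave 271 higher and 450 lower against 73 and 183. Those counts, added after the data were seen, were 7 and 30 with no filter, 4 and 19 with no variance trend, 0 and 0 with the signal log ratio, 222 and 428 without KO replicate 1, and 53 and 110 without WT replicate 1, and 48 were higher without KO replicate 2.

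The median difference of the carrier genes, -0.011, was 0.026 with quantile normalization, -0.082 with no filter, -0.050 with the signal log ratio, -0.074 with the mean over a gene's probe sets, -0.10 with the probe set of smallest p, and -0.025 to 0.057 with an array left out. Signs turned, with no call on either side, for Slc25a3 1416300_a_at (0.020) and Slc25a4 1424562_a_at (0.014) with quantile normalization, for Slc25a39 1439410_x_at (-0.0061) and Slc25a5 1434801_x_at (-0.016) with centring on probe sets Present on all arrays, and for Slc25a30 1420835_at (-0.20), Slc25a5 1423772_x_at (-0.050) and Slc25a5 1434801_x_at (-0.050) with the signal log ratio. With an array left out, the ranges that crossed 0 were -0.064 to 0.042 for Slc25a3 1416300_a_at, -0.11 to 0.051 for Slc25a4 1424562_a_at, -0.033 to 0.083 for Slc25a39 1439410_x_at, -0.92 to 0.083 for Slc25a27 1440090_at, -0.077 to 0.15 for Slc25a28 1424776_a_at and -0.22 to 0.013 for Vdac1 1437192_x_at. For Slc25a5 they were -0.37 to 0.11 at 1438545_at, -0.060 to 0.16 at 1438546_x_at, -0.0029 to 0.11 at 1423772_x_at, -0.034 to 0.30 at 1430542_a_at, -0.086 to 0.12 at 1434801_x_at and -0.034 to 0.15 at 1436874_x_at. Tomm40, Vdac1 1415998_at and Alad lost their calls with no filter, no variance trend and the signal log ratio, with which no probe set passed. Cpt2 passed with offsets of 16 and 64 (adjusted p = 0.0450 and 0.0431), a robust variance prior (0.0434), a replicate block (0.0115) and without KO replicate 1 (0.0462), and did not pass under the other 10 alternatives, where its difference was lowest, 0.10, with the signal log ratio (0.65). Got2 1417716_at passed with the block (0.0163), the centring (0.0452) and without KO replicate 1 (0.0458), and its adjusted p reached 0.467. Vdac1 1437947_x_at passed with the block (0.0301) and without KO replicate 1 (0.0149), and Esrra without KO replicate 1 (0.0453). The cause of these shifts was not tested.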

Other observations

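The carrier Slc25a53, which is X-linked, was called Absent on all 4 arrays at 1459914_at and so was not tested, with WT signals of 140.3 and 169.6 against KO signals of 96.9 and 81.6. Among the 40 carrier probe sets that were not tested, both KO arrays lay above both WT arrays at 8 (20%) and below at 10 (25%). Among all 25972 probe sets that were not tested, these shares were 12% above and 24% below. A probe set that names both Slc25a37 and Gm16867, 1430374_at, was Absent throughout, with signals of 1.9 to 8.4.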
